A study of Homo sapiens with 14 samples.

Results

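The genes described here are 10 members of the AP-1 and immediate early class, FOS, FOSB, FOSL1, FOSL2, JUN, JUNB, JUND, EGR1, ATF3 and IER3. They were chosen by name from the 28307 gene symbols of the deposited gene tables, and each was followed across 14 RNA-seq libraries of A375 cells, a human melanoma line that carries an activating BRAF mutation. All 10 were measured, and all 10 passed the filter on low values in every comparison (at least 1 FPKM, in 3 or more libraries for the bulk and all-library fits and in 2 or more for the clone fit). FPKM is a fragment count scaled to the length of the transcript and the size of the library, so levels given in FPKM can be compared between genes.

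AP-1 is a dimeric transcription factor. Jun proteins pair through a leucine zipper with Fos proteins, with each other or with ATF proteins, whereas Fos proteins need a partner, and the dimers bind the sequence TGANTCA or cAMP response elements. Immediate early genes are transcribed within minutes of a growth factor or stress signal without new protein synthesis, and many of their mRNAs are short-lived. In BRAF-mutant melanoma the ERK kinase pathway is constantly active and feeds several of these genes, FOSL1 and EGR1 among them.

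The study edited ZC3H18 (Z18), a zinc-finger protein that works with the nuclear machinery for RNA surveillance. Bulk Z18 CRISPR populations (n = 3) received a vector for Cas9 and a single guide RNA against Z18, and bulk control populations (n = 3) a Cas9 vector without a guide, by transient transfection followed by antibiotic selection. Single-cell clones grown by limiting dilution carried 1 truncating allele and 1 wild-type allele (trunc/+, n = 3), had lost 1 allele (-/+, n = 3) or were wild type after the same vector without a guide (WT, n = 2). The trunc/+ clones came from an attempt at repair from a donor template, with 1 clone repaired from it and 2 carrying other truncating mutations, the -/+ clones were selected by sequencing and reduced Z18 protein, and each clone was sequenced as 1 library, so that editing and clonal origin cannot be told apart within a clone. P-values measure the spread between these libraries, which may be technical in part.

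Libraries held 15615675 (bulk control 3) to 33018360 (trunc/+ 1) aligned fragments. Bulk control 2 stood apart, with an FPKM sum of 641536 against a median of 456317 over the 14 libraries and with 9.59% of its TPM in 10 genes. ZC3H18 itself was at 10.4, 11.9 and 12.8 FPKM in bulk CRISPR, against 38.1, 13.9 and 48.7 FPKM in the bulk controls. It was at 14.28, 13.98 and 8.70 FPKM in trunc/+, 16.2, 17.1 and 16.1 FPKM in -/+ and 23.5 and 22.0 FPKM in WT clones. Edited and control libraries did not overlap within the bulk or within the clones, bulk control 2 lay near the bulk CRISPR values, and no difference passed the threshold (limma adjusted p = 0.176 in bulk, 0.536 for trunc/+ and 1 for -/+ against WT). RNA levels do not show how much protein was left. Of 10 melanoma markers, 3 to 5 were at 1 FPKM or more in every library of a group and 2, MLANA and TYR, were at 0 in every library. The pigment cell markers PMEL, TYRP1 and DCT were at 0.559 FPKM or less in every library. SOX10, the neural crest factor of melanocytes, was at 10.8 to 33.6 FPKM in the bulk libraries and 47.8 to 212 FPKM in the clones, while 6 haematopoietic markers summed to at most 0.416 FPKM, 6 endothelial markers to 0.102 to 3.45 FPKM and 6 epithelial markers to 5.16 to 24.2 FPKM.

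Promoter sequences (250 bases before to 50 after the start site, from RefSeq on GRCh38.p14, the hg38 build of the files) were found for 8 of the 10 members. They make 9 windows, and whether each listed start is used in these cells was not tested. FOSL1 and IER3 had none in the table. They are shown because these genes are switched on through short elements close to the start site, and the capitals mark the motif, each searched on both strands. The half-site TGACGT of ATF and CREB proteins lay in promoters of 5 members, FOS, FOSB, FOSL2, JUND and EGR1, and in 7.98% of 35116 promoters of the same length. In JUND 2 of its 3 matches, 1 on each strand, lie in the full element TGACGTCA, which was in 1.85% of promoters. The variant element TGACATCA, the site in JUN that is known to bind Jun and ATF2, lay in JUN and in the first ATF3 promoter and in 2.61% of promoters. FOSL2 alone of the 8 held TGANTCA (7.71% of promoters), from 4 bases after its start site. Neither the EGR site GCGTGGGCG (0.795%) nor the NF-kB site (1.91%) was in these windows. A match is a description of letters and not a shown binding site. The 30-base windows below each run 5′ to 3′ on the strand of the gene.
FOS (chr14:75278764-75278769, plus strand, 64 bases before the start): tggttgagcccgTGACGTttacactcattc
FOSB (chr19:45467936-45467941, plus strand, 60 bases before): gcaaggggcgggTGACGTaagcaggggggc
FOSL2 half-site (chr2:28392792-28392797, plus strand, 66 bases before): ggagtctggggtTGACGTgagtgaatccac
FOSL2 AP-1 site (chr2:28392862-28392868, plus strand, 4 bases after): gtgccattgtagTGACTCAtctcgggcaga
JUND (chr19:18281815-18281822, minus strand, 200 bases before): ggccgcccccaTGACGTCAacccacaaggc
JUN (chr1:58784107-58784114, minus strand, 67 bases before): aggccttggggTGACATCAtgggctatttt
ATF3 (chr1:212565284-212565291, plus strand, 123 bases before its first start): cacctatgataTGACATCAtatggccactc

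FOS (chromosome 14, 75278828 to 75282230, plus strand, hg38) encodes c-Fos, the founding member of its family and a marker of recent ERK signalling. It was at 19.9, 15.8 and 16.2 FPKM in bulk CRISPR, against 25.0, 15.1 and 17.0 FPKM in the bulk controls, and these values overlapped. In the clones FOS was at 30.8, 43.7 and 125 FPKM in trunc/+, 34.3, 4.07 and 4.53 FPKM in -/+ and 20.8 and 15.6 FPKM in WT. Every trunc/+ clone lay above both WT clones, while -/+ clone 1 lay among the trunc/+ clones and the other -/+ clones lay below all other libraries. The log2 fold change (log2FC, taken on log2(FPKM + 1), where changes of low genes come out too small) was 2.50 (SE 0.80) for trunc/+ over -/+, 1.57 (SE 0.89) for trunc/+ over WT and -0.93 (SE 0.89) for -/+ over WT (limma adjusted p = 0.785, 0.698 and 1).

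FOSB (chromosome 19, 45467996 to 45475179, plus strand), a second strong activator of the family, was at 7.81, 7.92 and 7.07 FPKM in bulk CRISPR, against 6.46, 0.230 and 3.17 FPKM in the bulk controls. The edited populations lay close together and above every control, with a log2FC of 1.35 (SE 0.57, limma adjusted p = 0.232) that became 0.62 without bulk control 2. In the clones it was at 2.92, 30.1 and 24.8 FPKM in trunc/+, 3.03, 3.08 and 1.05 FPKM in -/+ and 3.73 and 4.92 FPKM in WT. So trunc/+ clones 2 and 3 stood far above all other clones, and trunc/+ clone 1 lay below both WT clones. The log2FC was 2.18 (SE 0.74) over -/+ and 1.47 (SE 0.83) over WT (limma adjusted p = 0.785 and 0.698), and -0.71 (SE 0.83, adjusted p = 1) for -/+ over WT, where the -/+ clones were all lower.

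FOSL1 (chromosome 11, 65892049 to 65900526, minus strand) encodes FRA1, which lacks the strong activation domain of c-Fos and accumulates under sustained ERK signalling. It was the most abundant Fos family member in 13 of 14 libraries, the exception being trunc/+ clone 3. It was at 194, 165 and 206 FPKM in bulk CRISPR, against 196, 22.6 and 139.9 FPKM in the bulk controls. Bulk control 2 held the lowest value of all libraries and the groups overlapped, so that the log2FC of 1.12 (SE 0.69, limma adjusted p = 0.362) became 0.18 without that library. The clones had 218, 284 and 65.4 FPKM in trunc/+, 76.0, 202 and 124 FPKM in -/+ and 125 and 226 FPKM in WT. The 3 clone groups overlapped, and the log2FC was -0.08 (SE 0.65) for trunc/+ and -0.44 (SE 0.65) for -/+ over WT. FOSL2 (chromosome 2, 28392858 to 28417317, plus strand), which encodes FRA2, a relative of FRA1, was at 10.9, 13.3 and 13.4 FPKM in bulk CRISPR, against 18.5, 8.13 and 24.3 FPKM in the bulk controls. It ran from 2.06 FPKM (WT clone 1) to 17.5 FPKM (-/+ clone 3) in the clones, and all its groups overlapped.

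JUN (chromosome 1, 58780791 to 58784047, minus strand) encodes c-Jun, the partner of Fos proteins that JNK kinases activate. It was at 25.3, 30.6 and 26.7 FPKM in bulk CRISPR, against 30.3, 18.4 and 28.1 FPKM in the bulk controls, a difference of 0.13 (SE 0.24) on the log2 scale. In the clones it was at 7.15, 42.7 and 51.5 FPKM in trunc/+, 16.8, 5.06 and 14.8 FPKM in -/+ and 10.2 and 25.3 FPKM in WT. As for FOSB, trunc/+ clones 2 and 3 lay above all other clones and trunc/+ clone 1 lay below both WT clones.

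JUNB (chromosome 19, 12791486 to 12793315, plus strand), a weaker activator that restrains c-Jun in many settings, was the steadiest member across the bulk libraries, at 70.8, 81.6 and 65.0 FPKM in bulk CRISPR and 64.1, 64.7 and 81.4 FPKM in the bulk controls. Its clones ran from 36.9 FPKM (-/+ clone 3) to 102 FPKM (trunc/+ clone 3), and every pair of clone groups overlapped. JUND (chromosome 19, 18279694 to 18281622, minus strand), the Jun protein made in resting cells, was at 57.4, 64.3 and 53.7 FPKM in bulk CRISPR, against 51.4, 68.6 and 106 FPKM in the bulk controls. It was at 55.2, 77.6 and 83.7 FPKM in trunc/+, 47.0, 31.0 and 39.7 FPKM in -/+ and 45.4 and 45.1 FPKM in WT. JUND was the only member for which every trunc/+ clone lay above every other clone. Its log2FC was 0.86 (SE 0.20, 95% interval 0.39 to 1.33) over -/+ and 0.64 (SE 0.23, interval 0.12 to 1.16) over WT. Neither passed over all genes (limma adjusted p = 0.785 over -/+ and 0.638 over WT).

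EGR1 (chromosome 5, 138465479 to 138469303, plus strand), a zinc-finger factor that is a direct readout of ERK acting through serum response factor, had the widest range of the members on the log2(FPKM + 1) scale. Its promoter window is printed whole because it alone, among those of the 8 members, held a CArG box, the serum response factor site. This site was in 1.29% of promoters of the same length. Bases farther upstream were not searched, so whether other members hold a CArG box there was not tested. Both CArG boxes of EGR1 (105 and 83 bases before the start) and both half-sites, here in the reverse form (136 and 67 bases before), are in capitals.
EGR1 promoter (chr5:138465229-138465528, plus strand): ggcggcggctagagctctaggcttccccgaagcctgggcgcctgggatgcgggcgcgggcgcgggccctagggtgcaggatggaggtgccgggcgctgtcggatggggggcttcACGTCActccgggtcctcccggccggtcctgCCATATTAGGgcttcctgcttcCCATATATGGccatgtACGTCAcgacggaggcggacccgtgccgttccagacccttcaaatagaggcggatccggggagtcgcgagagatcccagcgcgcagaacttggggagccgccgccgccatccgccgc

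EGR1 was at 34.5, 33.0 and 147 FPKM in trunc/+, 152, 5.89 and 1.44 FPKM in -/+ and 55.7 and 32.7 FPKM in WT clones. The lowest and the highest library of the series were thus both -/+ clones, and the log2FC of trunc/+ over -/+ was 2.04 with an SE of 1.40 (limma adjusted p = 0.843). In bulk it was at 25.2, 24.6 and 21.6 FPKM in CRISPR, against 23.7, 11.4 and 15.9 FPKM in the controls. The bulk log2FC of 0.51 (SE 0.28, limma adjusted p = 0.310) became 0.28 without bulk control 2.

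ATF3 (chromosome 1, 212565334 to 212620777, plus strand) is an ATF family factor induced by stress that can repress as a homodimer and pairs with Jun proteins. Its FPKM was 4.28 to 4.37 times its scaled read coverage in every library, against 0.991 to 1.11 times for the other members, so its level is not set against theirs here. ATF3 was at 25.2, 40.2 and 23.7 FPKM in bulk CRISPR, against 14.9, 9.36 and 7.07 FPKM in the bulk controls. All edited populations lay above all controls, with 29.7 ± 9.13 against 10.43 ± 3.998 FPKM (SD, n = 3 each). The log2FC of 1.44 (SE 0.32, 95% interval 0.71 to 2.18) was the largest of the members with all bulk libraries and a pseudocount of 1. Of tested genes, 1.69% had a smaller p. ATF3 did not pass over all genes (limma adjusted p = 0.105), and it did without bulk control 1 (log2FC 1.71, limma adjusted p = 0.0301). That fit called 1327 of 11904 genes, against 42 of 12114 with all bulk libraries, and its log2FC for FOSB was 1.92. The clones had 2.57, 32.7 and 13.3 FPKM in trunc/+, 2.49, 4.31 and 3.82 FPKM in -/+ and 2.61 and 4.30 FPKM in WT. Again trunc/+ clones 2 and 3 lay above all other clones, and trunc/+ clone 1 lay among WT and -/+. Without trunc/+ clone 2 the log2FC over WT was 0.71 instead of 1.45 (SE 0.80, limma adjusted p = 0.692).

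IER3 (chromosome 6, 30743199 to 30744547, minus strand), a short protein that prolongs ERK activity and protects from cell death, was at 173, 167 and 148 FPKM in bulk CRISPR, against 116, 125 and 90.6 FPKM in the bulk controls. The groups did not overlap (log2FC 0.56, SE 0.21, limma adjusted p = 0.209). In the clones it was at 189.7, 332 and 358 FPKM in trunc/+, 241, 224 and 124 FPKM in -/+ and 228 and 232 FPKM in WT. Clones 2 and 3 of trunc/+ were the highest libraries and -/+ clone 3 was the lowest clone. With its short transcript and a level of 90.6 to 358 FPKM, IER3 was the most abundant member in 9 of the 14 libraries and FOSL1 in the other 5.

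**Figure D1:**
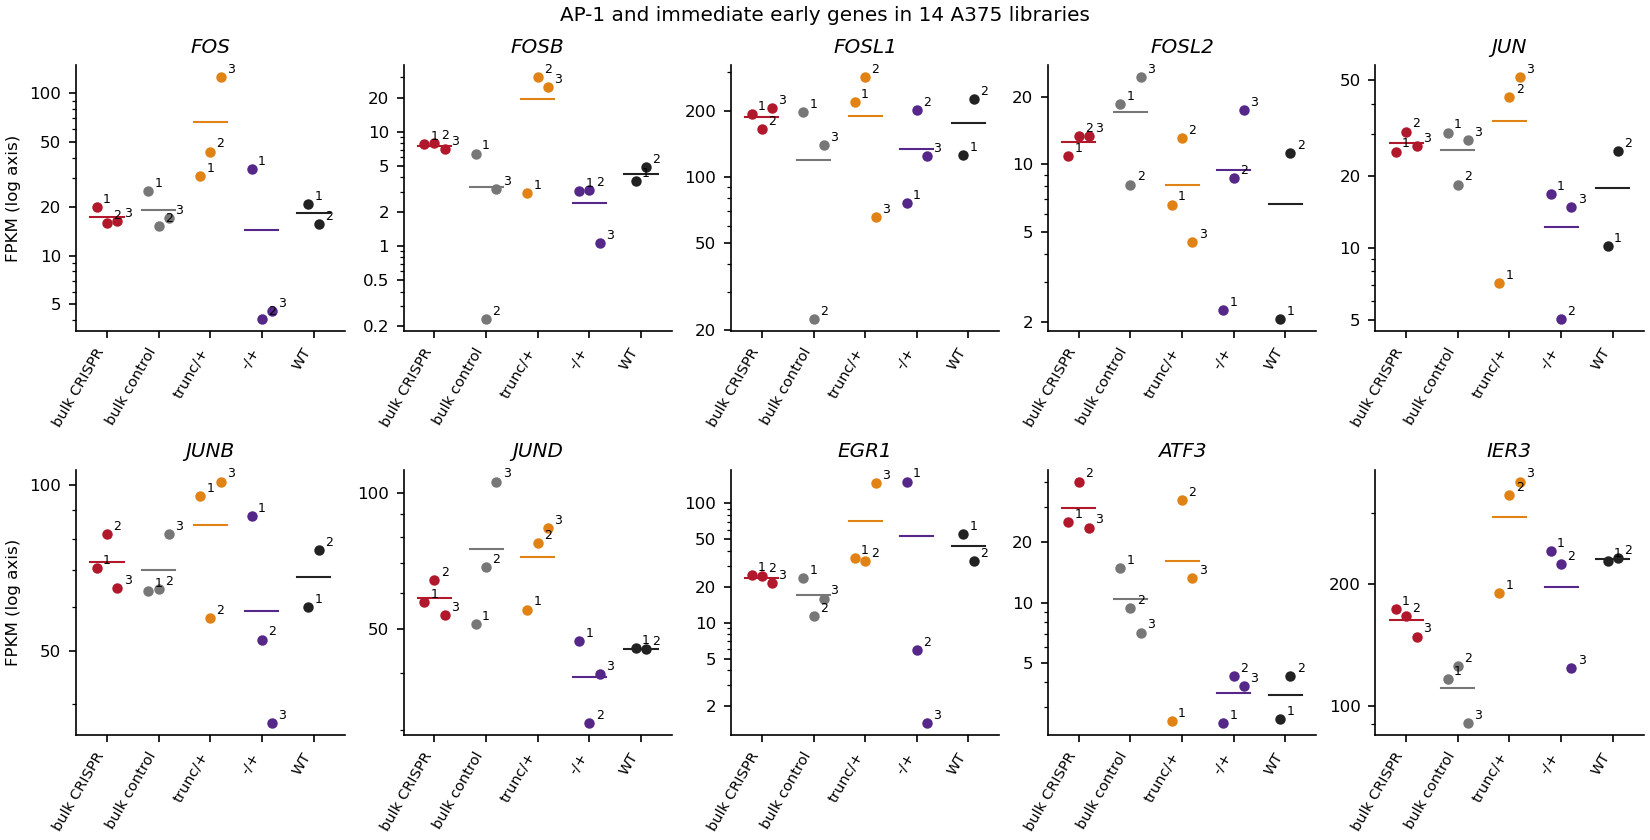
FPKM (log axis) of each member in the 14 libraries, with points numbered by replicate and a line at the group mean, over bulk CRISPR, bulk control, trunc/+, -/+ and WT. ATF3, FOSB and IER3 are higher in every bulk CRISPR point than in every bulk control point, and FOSB, JUN, ATF3 and IER3 are highest among clones in trunc/+ 2 and 3.

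Bulk Z18 CRISPR against bulk control asks how reduced Z18 in a mixed population goes with these genes. None of the 10 members passed the threshold of 0.05 (limma, Benjamini-Hochberg over all genes), where 42 of 12114 genes tested (0.347%) did, 23 higher and 19 lower. ATF3, FOSB and IER3 were higher with an unadjusted p under 0.05, beside 14% of all genes, and no member was lower with such a p, beside 6.93%. The same 3 members did not overlap between groups and were higher, beside 21.8% of all genes. The estimate was above 0 for 7 members, with a median log2FC of 0.32 beside 0.18 for all genes tested. Quantile scaling moved that median of all genes to 0.03, with 7 members above 0, among them ATF3 (1.31), FOSB (1.10) and IER3 (0.67). Because these are population averages, more RNA per cell and more cells with high RNA cannot be told apart. Leaving out bulk control 2 left 5 members above 0, and leaving out bulk control 1 raised the genes called to 1327 of 11904, ATF3 among them.

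Genes on which AP-1 acts were followed from lists chosen with earlier results of these data known. Of 20 tested AP-1 target genes, 3 rose past the threshold in bulk CRISPR and 0 fell, where 0.347% of all genes tested were called. The list median was 0.75, beside 0.18 for all genes tested, and 2 of the 3 genes are described here. SERPINB2, an inhibitor of plasminogen activators, averaged 20.8 ± 5.68 FPKM in bulk CRISPR and 1.52 ± 0.512 FPKM in the bulk controls (SD, n = 3 each, log2FC 3.11, SE 0.28, limma adjusted p = 0.00594). MMP1, a collagenase with AP-1 sites in its promoter, averaged 136 ± 53.4 against 26.6 ± 7.11 FPKM (log2FC 2.27, SE 0.32, limma adjusted p = 0.0391). In 6 fits that each left out 1 library, the adjusted p ran from 0.0230 to 0.0557 for SERPINB2 and from 0.0292 to 0.174 for MMP1. SERPINB2 was past the threshold in every setting but the one without bulk CRISPR 2, whereas MMP1 lost its call in 5 of these 6 fits and with a pseudocount of 0.1, with no filter and with all 14 libraries in 1 fit (limma adjusted p = 0.0547, 0.0985 and 0.0903). In the clones the groups of both genes overlapped and neither was called.

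The lists around the members held no called gene in bulk. Their medians and counts above 0 stand beside a median of 0.18 for all genes tested, and the lists were chosen with earlier results known. Of 15 tested genes of ERK output and feedback, 14 had an estimate above 0 (median 0.58), with EPHA4, a receptor kinase, at a log2FC of 1.34 (SE 0.26, limma adjusted p = 0.0885) and SPRY1, which restrains receptor signalling, at -1.03 (SE 0.19, adjusted p = 0.0821). Of 20 tested upstream kinases and serum response factor cofactors, 17 were above 0 (median 0.58), with MRTFB, a serum response factor cofactor, at 0.73 (SE 0.21) and MAPK8, which encodes JNK1, at 0.66 (SE 0.21, limma adjusted p = 0.148 and 0.164). The 9 tested genes of the integrated stress response, in which ATF4 acts upstream of ATF3, had a median of 0.55, with ASNS at 1.07 (SE 0.21) and CHAC1 at 1.44 (SE 0.29, limma adjusted p = 0.0906 and 0.0930). Among 32 other immediate early genes 20 were above 0, and RHOB at 1.30 (SE 0.24) and ID1 at -1.41 (SE 0.30) had the smallest p (limma adjusted p = 0.0821 and 0.0992). The 18 tested bZIP partners of AP-1 had a median of 0.22, with ATF2, a partner of c-Jun, at 0.78 (SE 0.29, limma adjusted p = 0.204) and BATF2 at -0.57 (SE 0.24, adjusted p = 0.224). Heat shock chaperones had a median of 0.02, with HSP90AA1 at -0.72 (SE 0.31) and HSPD1 at -0.47 (SE 0.23, limma adjusted p = 0.239 and 0.273). The fibroblast markers summed to 5.79 to 7.16 FPKM in bulk CRISPR and 2.42 to 2.69 FPKM in the bulk controls, with 1 of 6 at 0 in every library of each group, and their part in the result was not tested.

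The comparison of trunc/+ with WT clones asks what 1 truncating allele goes with. No member passed, where limma called 1 of 12904 genes (0.00775%), which was GAGE2C, named after its values were seen. The estimate was above 0 for 9 of 10 members, FOSL1 being the exception, with a median of 0.55 beside -0.02 for all genes. FOS and JUND were higher in all trunc/+ clones, 2 members beside 10.6% of all genes. JUND alone was under an unadjusted p of 0.05 (beside 3.29% of genes higher). Without trunc/+ clone 3 the estimate was 0.99 for FOS, 0.14 for JUN and -0.33 for EGR1, against 1.57, 0.63 and 0.37 with all clones. Of the lists, 26 of 33 other immediate early genes were above 0 (median 0.36), led by ZFP36L1, which destabilizes mRNAs, at 0.48 (SE 0.17) and DUSP1, an ERK and JNK phosphatase, at 0.77 (SE 0.30, limma adjusted p = 0.645 and 0.652). Of 18 AP-1 targets 11 were above 0, with LIF, a cytokine, at 2.05 (SE 0.58, limma adjusted p = 0.559), and no gene of any list passed.

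The comparison of -/+ with WT clones asks what loss of 1 allele goes with, and it shares its WT clones with the one above. No member passed and 1 of 12904 genes (0.00775%) did, again GAGE2C. The estimate was below 0 for 8 of 10 members (median -0.36 beside -0.02 for all genes), all with a limma adjusted p of 1. FOSB alone did not overlap and was lower, beside 8.44% of all genes, and no member was under an unadjusted p of 0.05, beside 1.82%. The widest estimates were EGR1 at -1.67 (SE 1.56) and FOS at -0.93 (SE 0.89). Clones 2 and 3 of -/+ had the 2 lowest values of both genes among the clones, and without -/+ clone 1 the estimate for EGR1 was -3.41. Other immediate early genes were split, with 15 of 33 above 0 (median -0.06).

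The comparison of trunc/+ with -/+ clones asks whether truncation and loss of 1 allele differ. All 10 members had an estimate above 0, with a median of 1.01 beside -0.0014 for all genes. FOSL2 was close to 0 (0.0090, SE 0.74), and without trunc/+ clone 2 the members above 0 were 8. With limma 0 of 12904 genes (0%) passed, and 810 (6.28%) were under an unadjusted p of 0.05, so that no member passed. FOS, FOSB and JUND were under an unadjusted p of 0.05, beside 3.12% of genes that were higher. Only JUND was higher in every trunc/+ clone than in every -/+ clone, beside 4.79% of genes. Of the other lists, 28 of 33 other immediate early genes were above 0 (median 0.53), with DUSP1 at 0.97 (SE 0.27, limma adjusted p = 0.785) and an FPKM of 13.97 ± 5.10 in trunc/+ and 6.52 ± 1.61 in -/+ (SD, n = 3 each). MAFG, a small Maf partner of bZIP factors, was at 21.1 ± 3.03 FPKM in trunc/+ and 14.4 ± 0.495 FPKM in -/+ (log2FC 0.51, SE 0.13, limma adjusted p = 0.785). The 18 AP-1 targets had a median of 0.20.

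**Figure D2:**
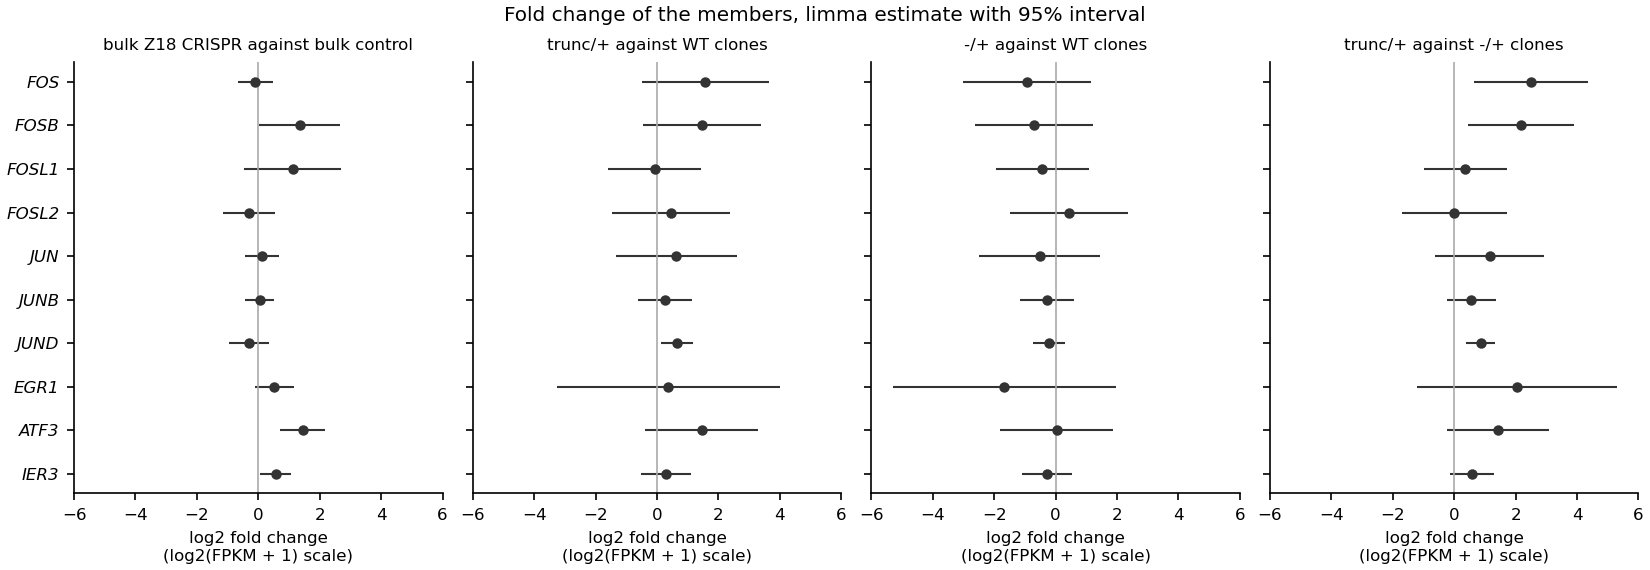
Log2 fold change of each member in the 4 comparisons (points, first group over second, on the log2(FPKM + 1) scale) with the 95% interval of limma. All 10 points are above 0 for trunc/+ over -/+ clones, with FOSL2 at 0.0090. The intervals of EGR1 are the widest in the 3 clone comparisons, and no member passed the threshold over all genes.

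The other lists held no called gene in any clone comparison, and the genes named here had the smallest p of their list. The integrated stress response was mostly below 0 against WT clones, unlike in bulk. For trunc/+ over WT 9 of 10 genes were below 0 (median -0.29), with the serine synthesis enzymes PSAT1 at -0.85 (SE 0.17) and PHGDH at -0.73 (SE 0.27, limma adjusted p = 0.536 and 0.645). For -/+ over WT all 10 were below 0 (median -0.23), with CHAC1 at -0.72 (SE 0.21) and PHGDH at -0.84 (SE 0.27, limma adjusted p = 1 for both). For bulk minus trunc/+ all 10 were above 0 (median 1.20 beside 0.18 for all genes tested). There limma called 0 of them, beside 0.046% of all genes. Over -/+, trunc/+ had 5 of 10 above 0, with CHAC1 at 0.53 (SE 0.19) and PSAT1 at -0.40 (SE 0.16).
For trunc/+ over WT the remaining lists were led by MAFG at 0.55 (SE 0.15) and CEBPG, a partner of ATF4, at -0.45 (SE 0.21), by the ERK output genes ETV1 at 0.64 (SE 0.16) and DUSP4 at 1.20 (SE 0.43), and by MMP14, a membrane-bound protease, at 0.86 (SE 0.42). The kinase MAP2K4, which activates JNK, was at 0.58 (SE 0.17), ELK1, a cofactor of serum response factor, at 0.28 (SE 0.15), and the chaperone genes BAG3 at 0.35 (SE 0.14) and HSPD1 at -0.50 (SE 0.21).
For -/+ over WT these were the bZIP genes CEBPB at -0.25 (SE 0.17) and BATF3 at -0.46 (SE 0.34), the immediate early genes SGK1 at 0.76 (SE 0.42) and IER2 at -0.54 (SE 0.33), and ETV1 at 0.37 (SE 0.16) and SPRED1, which restrains ERK signalling, at -0.30 (SE 0.17). The AP-1 targets AREG, an EGF receptor ligand, and LIF were at 1.81 (SE 0.91) and 1.01 (SE 0.58), MAP2K4 at 0.30 (SE 0.17), ELK1 at 0.26 (SE 0.15), HSPB1 at -0.35 (SE 0.20) and HSPH1 at 0.43 (SE 0.34).
For trunc/+ over -/+ they were ATF5 at -0.69 (SE 0.34), ZFP36L1 at 0.44 (SE 0.16), EPHA4 at 0.71 (SE 0.24), the ERK phosphatase gene DUSP5 at 0.81 (SE 0.29), MMP14 at 0.81 (SE 0.37), LIF at 1.04 (SE 0.52), the ERK pathway kinases MAP2K2 at 0.31 (SE 0.12) and MAPK3 at 0.34 (SE 0.18), BAG3 at 0.36 (SE 0.12) and HSP90AA1 at -0.57 (SE 0.26).

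Whether a member's difference in bulk differed from that in the clones was tested in 1 fit of all 14 libraries. No member passed for bulk minus trunc/+ (6 of 13050 genes, 0.046%, did) or for bulk minus -/+ (4 genes, 0.0307%). For bulk minus trunc/+, JUND came nearest at -0.94 on the log2 scale (SE 0.38, limma adjusted p = 0.518), and FOS followed at -1.68 (SE 0.96, adjusted p = 0.593). For bulk minus -/+, IER3 came nearest at 0.85 (SE 0.42, limma adjusted p = 0.579), and FOSB followed at 2.06 (SE 1.08, adjusted p = 0.588). For ATF3 the bulk minus trunc/+ contrast was -0.01 (SE 0.89, 95% interval -1.94 to 1.92), an interval that leaves room for a difference of either sign.

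Clones of 1 genotype differed widely for several members. Trunc/+ clone 3 was the highest clone for 5 members and trunc/+ clone 2 for 3, whereas -/+ clone 3 was the lowest for 4 and -/+ clone 2 for 3. EGR1, FOS and FOSL2 were at 147, 125 and 4.51 FPKM in trunc/+ clone 3 and at 152, 34.3 and 2.24 FPKM in -/+ clone 1. In -/+ clone 3 the order was turned round, with EGR1 at 1.44, FOS at 4.53 and FOSL2 at 17.5 FPKM. As a description over the 8 clones, FOS went with EGR1 (r = 0.87, rho = 0.76, and 0.84 without the 2 clones farthest from the median of FOS) and with JUND (r = 0.91, rho = 0.98, and 0.75 without the same 2). EGR1 and FOSL2 went in opposite directions (r = -0.75, rho = -0.83, and -0.70 without 2 clones), and the relation of FOS with FOSL2 was weaker (r = -0.45, rho = -0.33), since trunc/+ clone 2 had 43.7 FPKM of FOS and 13.1 FPKM of FOSL2. FOSB and ATF3 had r = 0.90 over 8 clones and -0.05 without trunc/+ clones 2 and 3, so that this relation rests on those 2 clones. All points come from 1 cell line and from 3 genotypes, and these pairs are only some of all pairs of members. Over the 14 libraries with group means taken out, r was 0.94 for FOS with EGR1 and 0.39 for FOS with JUND. How much of the relation of FOS with JUND comes from the difference between genotypes was not tested. SOX10 was also high in trunc/+ clone 3 (205 FPKM) and -/+ clone 1 (212 FPKM) and lowest of the clones in -/+ clone 3 (47.8 FPKM), yet it was at 199 FPKM in trunc/+ clone 1, where EGR1 was at 34.5 FPKM. The sum of 10 melanoma markers ran from 199 to 700 FPKM in trunc/+, 187 to 888 FPKM in -/+ and 272 to 719 FPKM in WT, with 2 of 10 at 0 in each group, and its part in the result was not tested.

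**Figure D3:**
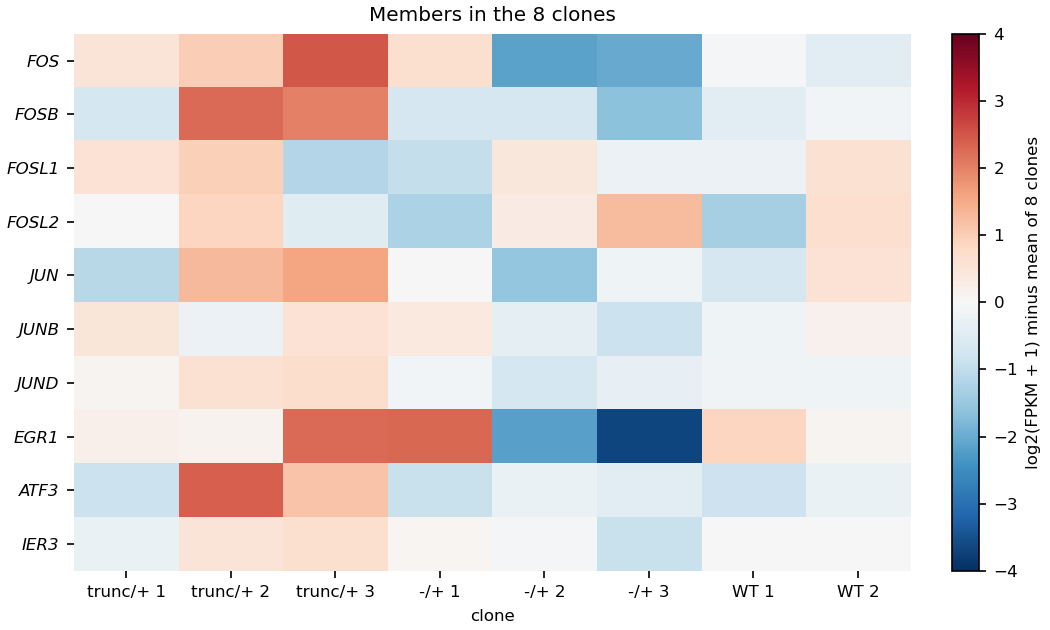
Members (lines of the map) in the 8 clones (columns, trunc/+, -/+ and WT), coloured by log2(FPKM + 1) minus the mean of the 8 clones. FOSB and ATF3 are red in trunc/+ 2 and 3, and EGR1 runs from 2.30 above the mean in -/+ 1 to -3.67 in -/+ 3.

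Genes whose pattern was most like a member were taken over 14 libraries and 13050 genes for the 3 members with the widest range. For EGR1 these were HSPA12A (Pearson r = 0.88), FOS (0.86) and PGGHG (0.86). For FOS they were EGR1 (0.86), HES1 (0.85), a transcriptional repressor downstream of Notch, and HSPA12A (0.84). For FOSB they were CASTOR3 (0.81), SETD4 (0.80) and MUC1 (0.79). Thus EGR1 and FOS were among each other's 3 nearest genes, and no AP-1 gene was among those of FOSB. By Spearman's rho, FOS ranked 41 among the genes most like EGR1, and EGR1 ranked 8 among those most like FOS. The libraries share 1 line, and their depths differ.

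The make-up of the Fos family differed more between libraries than that of the Jun family. FOSL1 took 83.3% ± 1.60 of the summed Fos family FPKM in bulk CRISPR and 68.2% ± 16.7 in the bulk controls (SD, n = 3 each), where bulk control 2 alone had 49.0%. In the clones it took 63.6% ± 29.6 in trunc/+, 80.9% ± 13.8 in -/+ (n = 3 each) and 85.1% ± 3.70 in WT (n = 2). In trunc/+ clone 3 FOS took 57.0% and FOSL1 29.7%, so that the leading Fos mRNA was exchanged in this clone alone. JUNB took 45.7% ± 0.858 of the Jun family in bulk CRISPR and 41.5% ± 3.27 in the bulk controls, and 45.2% ± 14.3 in trunc/+, 52.5% ± 10.6 in -/+ and 52.0% ± 0.0623 in WT. JUN stayed the smallest Jun share in all groups, with group means of 11.01% to 17.4%. Shares in bulk CRISPR varied little between replicates for both families, and those of the clones varied widely.

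**Figure D4:**
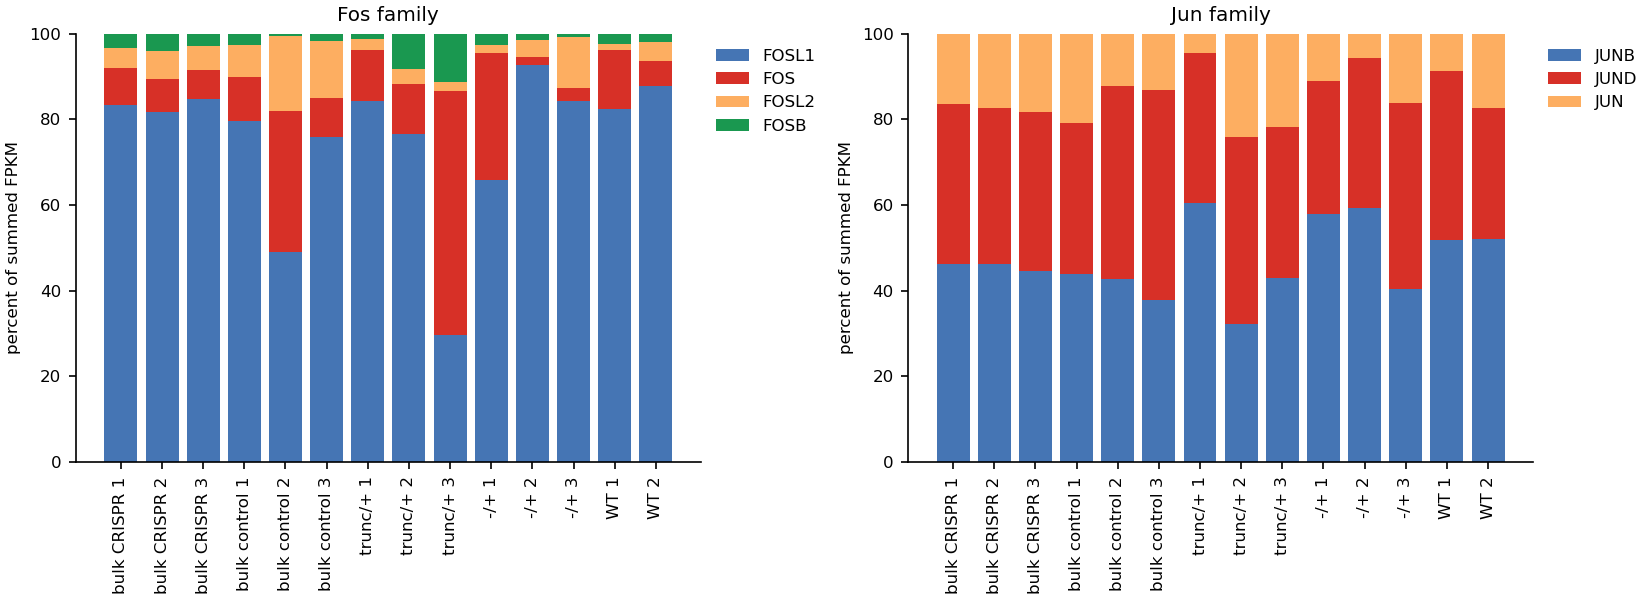
Percent of the summed FPKM of the Fos family (left) and the Jun family (right) in each of the 14 libraries, 1 bar per library. FOSL1 fills most of every bar on the left except trunc/+ 3, where FOS takes 57.0%, and bulk control 2, where FOSL1 takes 49.0%.

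A separate readout over the same loci came from copies of transposable elements (TEs), which the deposited TE tables count per copy and strand. Signal over copies in introns can come from RNA that still holds the intron. It can also come from RNA that starts inside the intron or has an unannotated exon there, and these were not told apart. FOSL1 holds 17 copies, in either orientation, that overlap no GENCODE exon of its strand, and only signal on the strand of the gene was summed. Their sum, scaled to the aligned fragments of the library (CPM, counts per 1e6), was 59.0, 30.7 and 41.5 in bulk CRISPR, against 53.3, 103 and 48.6 in the bulk controls. It was 25.4, 97.3 and 40.4 CPM in trunc/+, 9.34, 16.4 and 33.5 CPM in -/+ and 16.5 and 30.8 CPM in WT. The highest sum of all was thus in bulk control 2, the library with the lowest FOSL1 FPKM. Per unit of FPKM the intronic signal was 4.56 CPM in bulk control 2 and between 0.0815 and 0.618 CPM in the other 13 libraries. In that library 10 of the 17 copies had their highest value. Signal on the opposite strand of the same introns was 0.324 CPM there and 0 to 0.281 CPM in the others, and TEs took 8.18% of its aligned fragments, within the 6.92% to 10.7% of the series.

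ATF3 has 13 such intronic copies. They summed to 2.17, 1.79 and 1.75 CPM in bulk CRISPR, against 1.95, 0.378 and 0.897 CPM in the bulk controls. In the clones the sum was 0.333, 25.6 and 7.58 CPM in trunc/+, 0, 0 and 0.0837 CPM in -/+ and 0.108 and 0.217 CPM in WT. The same trunc/+ clones 2 and 3 that were high in ATF3 FPKM were thus high in intronic signal. Per unit of FPKM they had 0.783 and 0.570 CPM, whereas bulk CRISPR, with ATF3 at 23.7 to 40.2 FPKM, had 0.0446 to 0.0861 CPM. Trunc/+ clone 1 had 0.130 CPM, the bulk controls 0.131, 0.0404 and 0.127 CPM, and the -/+ and WT clones 0 to 0.0505 CPM. Of the 13 copies, 9 had their highest value in trunc/+ clone 2, all between 212610831 and 212617091 of chromosome 1. The second listed start site of ATF3, at 212615018, lies in this stretch, and its use in these clones was not tested. The opposite strand of these introns held at most 0.324 CPM in any library. FOSB has 1 intronic copy, with 1.15 ± 0.346 CPM in trunc/+, 0.242 ± 0.418 CPM in -/+ (SD, n = 3 each) and 0.607 ± 0.501 CPM in WT (n = 2), and FOSL2 has 12, with sums of at most 1.67 CPM in any library. In the 5 kb downstream of IER3 the sum was 2.05 ± 1.23 CPM in trunc/+, 1.16 ± 0.534 CPM in -/+ and 0.718 ± 0.301 CPM in WT (SD, n = 3, 3 and 2). Every trunc/+ clone lay above both WT clones there, trunc/+ and -/+ overlapped, and the highest library was bulk control 2 at 3.94 CPM. Downstream windows were not checked for other genes on the same strand, so this signal cannot be assigned to IER3. No test was run on these sums.

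**Figure D5:**
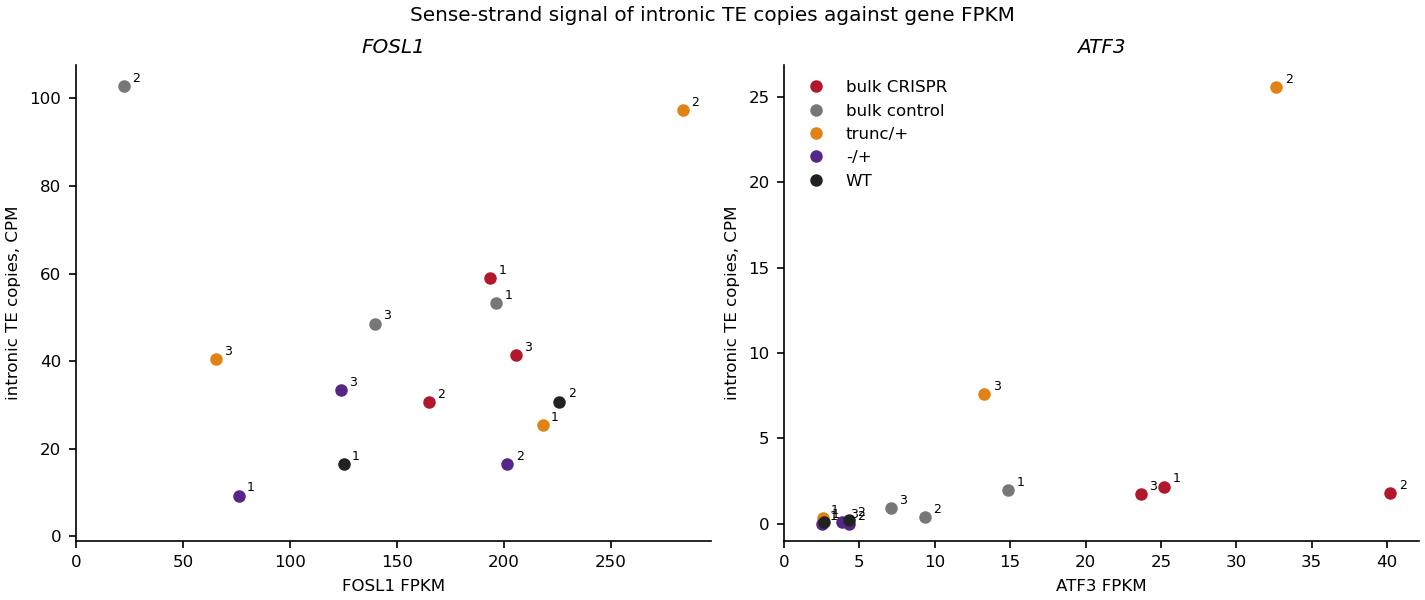
Signal on the gene's strand summed over intronic TE copies of either orientation (CPM, vertical) against the FPKM of the gene (horizontal) for FOSL1 and ATF3, 1 point per library numbered by replicate. Bulk control 2 lies alone at the top left for FOSL1 (103 CPM at 22.6 FPKM), and trunc/+ clones 2 and 3 lie above the other libraries for ATF3 (25.6 and 7.58 CPM).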

How the data were processed

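PolyA-selected, stranded RNA-seq of 14 A375 libraries was used, grouped by their genotype labels. Per the study's methods, reads were mapped to hg38 and quantified with SQuIRE; the submitters' processing notes name cutadapt 4.6. Deposited gene tables hold FPKM and TPM values and a coverage signal, made by the authors with StringTie and the RefSeq annotation. The deposited TE tables hold, per copy and strand, an estimated count in which fragments mapping to several copies were shared out, a count of uniquely mapped fragments and the number of aligned fragments of the library. The read depth behind a single gene is unknown from FPKM.

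Rows of a symbol were added up, and log2(FPKM + 1) was fitted in limma 3.58.1 (trend option, R 4.3.3), with a pseudocount of 1, for genes that reached 1 FPKM in 3 or more libraries (bulk, all libraries) or 2 or more (clones). The study's own gene test used counts, which the gene tables do not hold, so a count test was not run. The bulk comparison used the 6 bulk libraries and the clone comparisons all 8 clones. P-values were adjusted by Benjamini-Hochberg over all genes tested, with a threshold of 0.05. The procedure was tested on simulated data. TE signal is the estimated count, scaled to 1e6 aligned fragments, of copies whose centre lay in a gene or within 5000 bases of it. An intronic copy overlaps no GENCODE exon on the gene's strand. Coverage was scaled to the FPKM of each library by 1 fixed multiple. All columns of values belonged to a sample (0 left out).

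The members and lists were chosen with earlier results of these data known. From each other list, genes past the threshold are named (up to 5), or else up to 2 with the smallest p, for the bulk and clone comparisons. 1 of the AP-1 targets past the threshold is not reported here. The lists were AP-1 targets, other bZIP partners, other immediate early genes, ERK output and feedback, upstream kinases and serum response factor cofactors, integrated stress response, heat shock chaperones, and markers of melanoma, epithelial, fibroblast, haematopoietic and endothelial cells. Alternatives were a pseudocount of 0.1, other filters, TPM, quantile scaling, a replicate block, other sets of libraries and leaving out each library, and, chosen after seeing the data, scaled coverage in place of FPKM.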

Additional observations from a re-analysis of the deposited data

How the results depend on the processing

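Over the alternatives and the fits without 1 library, 2 of 140 member values passed the threshold in bulk and none did elsewhere (170 in each clone comparison, 210 in each difference of differences). Both were ATF3, without bulk control 1, where 1327 of 11904 genes were called, and with the replicate block (limma adjusted p = 0.0311). Genes called in bulk, 42 as reported, were 20 with a pseudocount of 0.1 (8 higher, 12 lower), 16 with no filter, 26 with TPM (15 higher, 11 lower), 73 with quantile scaling (25 higher, 48 lower), 220 with the replicate block and 316 with all 14 libraries in 1 fit. The block left 1 member called, ATF3. With group means taken out, same-numbered bulk libraries correlated at -0.16, -0.20 and 0.17, and differently numbered ones at -0.26 to 0.39. With 3 libraries per group, these values cannot show whether same-numbered libraries were prepared together. Quantile scaling moved the median log2FC of all genes in bulk to 0.03 and TPM moved it to 0.29, against 0.18. For trunc/+ and for -/+ against WT, 1 gene was called as reported, 0 with a pseudocount of 0.1, the replicate block, all 14 libraries or only the 2 groups, and 3 with no filter. For bulk minus trunc/+, 6 became 1 with a pseudocount of 0.1, 12 with no filter and 3 with TPM. For bulk minus -/+, 4 became 2 with a pseudocount of 0.1 and 11 with no filter. The causes of these changes were not tested.

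Estimates that turned direction, none of them called, were FOSL1 in trunc/+ over WT (0.24) and ATF3 in -/+ over WT (-0.060) with the replicate block, and FOSL2 in trunc/+ over -/+ (-0.0053) with quantile scaling. In bulk minus trunc/+ they were FOSB (0.42 with a pseudocount of 0.1, 0.074 with TPM), ATF3 (0.025 with TPM, 0.11 with scaled coverage) and EGR1 (-0.00058 with quantile scaling, -0.010 with the replicate block). In bulk minus -/+ it was JUND (0.00074 with TPM, 0.0076 with the replicate block). The TE signal downstream of JUND in the bulk controls was 0.766 CPM from uniquely mapped fragments, against 0.931 CPM.

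With 1 library left out, genes called ran from 4 (without bulk CRISPR 2) to 1327 (without bulk control 1) in bulk, 0 to 1 for trunc/+ and for -/+ against WT, 0 to 0 for trunc/+ against -/+, 2 to 257 for bulk minus trunc/+ and 3 to 233 for bulk minus -/+, both highest without bulk control 1. Members called ran from 0 to 1 in bulk. Estimates crossed 0 in bulk for FOS (-0.25 to 0.096), FOSL2 (-0.72 to 0.013), JUN (-0.086 to 0.26) and JUNB (-0.038 to 0.16). They did so in trunc/+ over WT for FOSL1 (-0.50 to 0.56), FOSL2 (-0.54 to 1.46) and EGR1 (-0.33 to 0.74), and in trunc/+ over -/+ for FOSL1 (-0.050 to 1.00) and FOSL2 (-0.67 to 0.58). In -/+ over WT they did so for FOSL2 (-0.55 to 1.45), JUN (-1.14 to 0.10), JUNB (-0.61 to 0.0061), ATF3 (-0.25 to 0.31) and IER3 (-0.46 to 0.016). In bulk minus trunc/+ they did so for FOSB (-1.07 to 0.45), FOSL2 (-1.75 to 0.25), JUN (-1.36 to 0.11), EGR1 (-0.23 to 0.84), ATF3 (-0.88 to 0.74) and IER3 (-0.022 to 0.43), and in bulk minus -/+ for FOSL2 (-1.74 to 0.26) and JUND (-0.32 to 0.19). FPKM do not give the number of reads behind a gene, so no counting error can be set on a member, and 2 WT clones limit both comparisons with WT.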
